A study of Mus musculus with 4 samples.

Results

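The genes described here encode 37 proteins of the lysosome, the hydrolases of its interior together with some cofactors and membrane proteins. They form a named list, and each gene was represented by the probe set that the platform annotation pairs with its symbol alone. Where several probe sets carried a symbol, the one brightest on average across the 4 arrays was used. All 37 genes had a probe set, among 19938 genes represented in the series and 35556 probe sets in all. The list was drawn up with results of the VPA contrast known, Lipa and Gla among them, so the differences below describe these genes and support nothing by themselves.

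The series compares mouse embryonic stem cells of the line E14 after 4 h with valproic acid (VPA) at 0.5 mM against the same line left untreated, on 2 arrays each. VPA, in clinical use against epilepsy, blocks histone deacetylases. Cells of both groups grew on a layer of mitomycin-treated embryonic fibroblasts in medium with serum and leukemia inhibitory factor, so feeder RNA can be part of every sample. E14 is a single line, no genotype differs between the groups, and nothing in the labels says that the replicates came from separate cultures. What the p-values weigh is thus the scatter among these arrays alone, and that scatter may be technical.

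Lysosomes are acidic organelles in which lipids, glycans and proteins delivered by endocytosis and autophagy are broken down. Most of the soluble hydrolases are made in the endoplasmic reticulum, tagged with mannose 6-phosphate in the Golgi and carried onward by receptors, while membrane proteins such as LAMP1 and LAMP2 line the organelle and carry sorting signals in their tails. Many of the genes share a palindromic promoter element with the core CACGTG, the CLEAR element, which the transcription factors TFEB and TFE3 bind. Inherited loss of single members of the group causes many of the lysosomal storage diseases.

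With VPA, 34 of the 37 genes had a higher mean than in untreated cells and 3 had a lower one, namely Idua, Arsb and Scarb2. Over all represented genes 53.7% had a higher mean and 46.3% a lower one. The median log2 difference, VPA minus untreated, was 0.23 for the members, against 0.015 for all represented genes and 0.056 for the 11290 bright genes, those whose probe set had a mean at or above that of the median probe set. Of the members, 34 are bright genes. The differences ran from −0.22 (Scarb2) to 0.97 (Lipa), so that Lipa was 1.96-fold higher with VPA and Lamp2, the next, 1.60-fold. In bulk RNA a different number of cells of a type and a different amount of RNA per cell cannot be told apart.

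None of the 37 passed the test. With limma and Benjamini-Hochberg adjustment over all probe sets, the adjusted p ran from 0.462 (Lipa) to 0.992 (Cd63), and 0.00% of represented genes, and of all 35556 probe sets, were called in either direction. At an unadjusted p under 0.05 in the same fit, 10 of 37 members were higher and 0 lower, where 5.90% of represented genes were higher and 2.71% lower (5.76% and 3.43% of all probe sets, or 2049 and 1220). Among bright genes those shares were 9.58% and 3.37%. After a second quantile normalization 7 members were higher and 0 lower, beside 4.33% and 3.74% of represented genes, and 1670 probe sets were higher and 1542 lower. Single arrays moved the members' median log2 difference. It was 0.29 without VPA replicate 1 and 0.25 without VPA replicate 2, beside 0.0085 and 0.024 for all represented genes. Without untreated replicate 1 it was 0.23, and without untreated replicate 2 it was 0.17, beside 0.012 and 0.022. Lipa kept an unadjusted p under 0.05 under all 10 alternatives and Lamp2 under 9 of 10, followed by Gla with 8.

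The arrays of the groups did not overlap for 24 of the 37 genes. In 22 of them, 59.5% of the members, both VPA arrays lay above both untreated arrays, and in 2 (Idua and Arsb) both lay below. Among represented genes 24.1% were separated upward and 18.1% downward, and among bright genes 32.2% and 16.4%. Separation by at least 1.5-fold was seen for 2 members, Lipa and Lamp2, both higher with VPA, beside 0.973% of represented genes and 1.64% of bright ones; 0 members were lower by as much, beside 0.266% and 0.425%. Ctsc, with a log2 difference of 0.58, stood just under that limit.

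**Figure D1:**
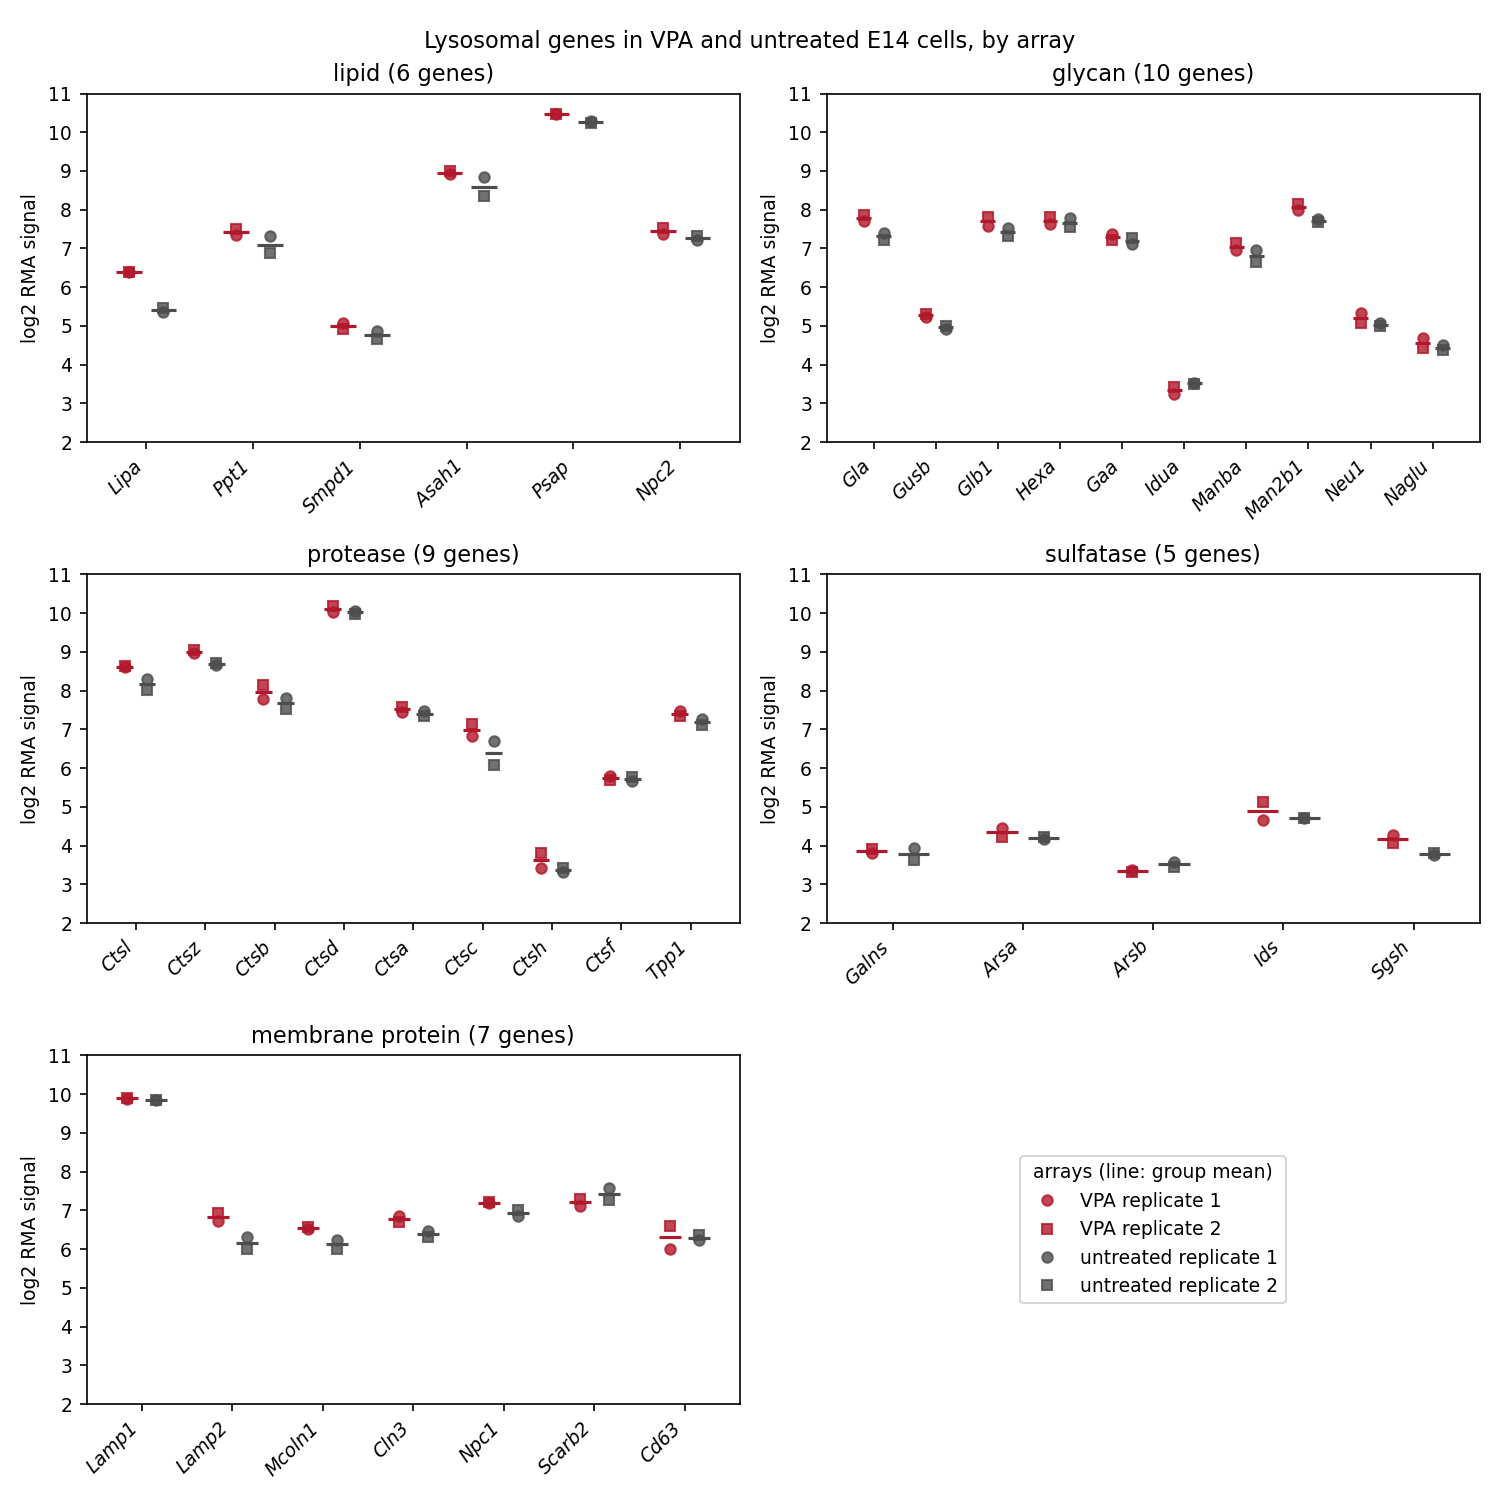
Log2 RMA signal (y axis) of each of the 37 genes on each array, by class. VPA arrays are red and to the left, untreated arrays grey and to the right, with circles for replicate 1, squares for replicate 2 and a line at each group's mean. Lipa shows the widest gap, 6.38 and above with VPA, against 5.47 and below in untreated cells, whereas the arrays of Cd63, Ctsd, Ctsf and Hexa are mixed.

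The promoter sequences show how unlike one another the members are in the element named above. RefSeq windows of 250 bases before to 50 after the annotated start (GRCm38.p6) were found for 32 of the 37 genes. CACGTG, which is its own reverse complement and so reads alike on both strands, occurred in a window of 13 of them, or 40.6%, against 21.3% of 61 further lysosomal genes and 8.09% of all 27025 genes with a window. The longer palindrome TCACGTGA, which contains that core, occurred in 5 (Cln3, Ctsa, Ctsd, Gla and Mcoln1), or 15.6%, against 14.8% of the further lysosomal genes and 1.12% of all genes. The 13 genes with CACGTG had a median log2 difference of 0.15 and ranged from 0.029 to 0.46, while the 19 with a window but no CACGTG had a median of 0.21 and ranged from −0.22 to 0.97. An unadjusted p under 0.05 in limma, with a higher mean, was reached by 5 of the 13 and by 5 of the 19. Over represented genes 5.90% were higher at that p, and over bright genes 9.58%. A match is a description of the letters and no site or cause, and a missing match says only that these letters are not in this window.

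Shown first are the stretches before the starts of Lipa and Lamp2, the genes with the largest differences, neither of which has CACGTG in its window; capitals there mark a CCAAT box on the reverse strand (ATTGG), which on either strand was present in windows of 12 of 32 members and 41.1% of all genes. The next 4 are among the members with more than 1 copy of CACGTG, have log2 differences between 0.055 and 0.46, and have the copies in capitals. Ctsa (difference 0.11) and Ctsd (0.077) also have more than 1 copy and are not shown. All run 5′ to 3′ along the gene's strand and end at the base before the annotated start: Lipa at chr19:34527475-34527594 (minus), Lamp2 at chrX:38456461-38456580 (minus), Gla at chrX:134601006-134601255 (minus), Mcoln1 at chr8:3500399-3500518 (plus), Cln3 at chr7:126583237-126583416 (minus) and Lamp1 at chr8:13159041-13159160 (plus).
Lipa: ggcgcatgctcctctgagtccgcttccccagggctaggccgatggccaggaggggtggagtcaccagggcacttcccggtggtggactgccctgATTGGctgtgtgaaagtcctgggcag
Lamp2: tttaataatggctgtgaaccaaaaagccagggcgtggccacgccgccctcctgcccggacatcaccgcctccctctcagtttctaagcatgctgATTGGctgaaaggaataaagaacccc
Gla: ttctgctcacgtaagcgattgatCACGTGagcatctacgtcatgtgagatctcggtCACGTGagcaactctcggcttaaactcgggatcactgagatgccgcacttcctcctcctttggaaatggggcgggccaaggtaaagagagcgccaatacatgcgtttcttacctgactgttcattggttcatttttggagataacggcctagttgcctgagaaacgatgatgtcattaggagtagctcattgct
Mcoln1: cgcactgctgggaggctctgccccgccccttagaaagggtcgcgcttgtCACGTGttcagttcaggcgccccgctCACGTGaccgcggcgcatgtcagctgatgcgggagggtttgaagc
Cln3: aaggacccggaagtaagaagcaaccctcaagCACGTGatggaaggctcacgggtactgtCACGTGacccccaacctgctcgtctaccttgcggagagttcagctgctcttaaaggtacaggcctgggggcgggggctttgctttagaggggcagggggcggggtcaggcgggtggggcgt
Lamp1: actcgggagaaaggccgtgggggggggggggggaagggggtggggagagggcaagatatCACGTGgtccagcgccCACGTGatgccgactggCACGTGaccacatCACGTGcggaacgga
In the Gla stretch the copies begin 227 and 194 bases before the start and both are flanked to give TCACGTGA. Mcoln1 has copies at 71 and 45 bases and Cln3 at 149 and 121 bases before the start, and in each the copy nearer the start has the longer form. Lamp1 has 4 copies, at 61, 45, 28 and 15 bases, the most of any member, and a log2 difference of 0.055.

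The lipid class held 6 genes, each with a higher mean and with no overlap between the groups, and a median log2 difference of 0.28. Among represented genes 53.7% had a higher mean and 24.1% were separated upward, and among bright genes 60.9% and 32.2%. Lipa encodes lysosomal acid lipase, which frees cholesterol and fatty acids from lipoprotein lipids. Its log2 signal was 6.40 and 6.38 with VPA, against 5.35 and 5.47 in untreated cells, so the lowest VPA array stood 0.90 above the highest untreated one. The log2 difference was 0.97 ± 0.11 (SE), with a 95% interval from 0.69 to 1.26, and it stayed between 0.91 and 1.03 under the 10 alternatives. The other 5 genes differed by less, and the intervals of all 5 included 0.

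Asah1, acid ceramidase, had log2 signals of 8.91 and 9.01 with VPA, against 8.84 and 8.35 in untreated cells. Ppt1, which removes palmitate from proteins, had 7.35 and 7.50 with VPA, against 7.31 and 6.89. In both genes untreated replicate 2 was the low array and untreated replicate 1 lay close under the VPA arrays. The differences, 0.36 and 0.33 over all arrays, were 0.12 for Asah1 and 0.12 for Ppt1 without untreated replicate 2. Psap, the precursor of the saposins that present lipids to hydrolases, had 10.46 and 10.48 with VPA, against 10.30 and 10.24. Its replicates were close together, and the difference was 0.20 ± 0.11 (SE). Smpd1, acid sphingomyelinase, differed by 0.23, and Npc2, which carries cholesterol inside the lysosome, by 0.19. These became 0.12 for Smpd1 without untreated replicate 2 and 0.12 for Npc2 without VPA replicate 2. Without untreated replicate 2 the class median was 0.15, and it was 0.44 with untreated replicate 1 left out.

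The glycan class held 10 glycosidases, 9 with a higher and 1 with a lower mean, and a median log2 difference of 0.21. Gla, α-galactosidase A, which trims galactose from glycolipids, had log2 signals of 7.70 and 7.87 with VPA, against 7.41 and 7.23 in untreated cells. Its difference was 0.46 ± 0.13 (SE), with a 95% interval from 0.12 to 0.80. Man2b1, the lysosomal α-mannosidase, had 8.00 and 8.14 with VPA, against 7.76 and 7.68. Gusb, β-glucuronidase, had 5.23 and 5.31 with VPA, against 4.92 and 5.01. In all of these the groups were apart by more than 0.2, and the differences of Man2b1 (0.35) and Gusb (0.30) had intervals above 0.

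Glb1, β-galactosidase, differed by 0.28 and Manba, β-mannosidase, by 0.24, Glb1 without and Manba with overlap of the arrays. Leaving out VPA replicate 2 gave 0.17 for Glb1, and leaving out untreated replicate 2 gave 0.073 for Manba. Neu1, the sialidase, differed by 0.17 with the groups 0.011 apart, and by 0.051 without VPA replicate 1. Naglu (0.12), Gaa (0.093) and Hexa (0.053), which act on heparan sulfate, glycogen and gangliosides, had overlapping arrays. The sign of the Naglu difference turned in 1 alternative and that of Hexa in 3. Idua, α-iduronidase, was the exception of the class, with 3.24 and 3.43 with VPA, against 3.52 and 3.51 in untreated cells. Its difference was −0.18 ± 0.12 (SE), with an interval that included 0, at a signal below the median probe set, and it was −0.090 without VPA replicate 1.

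The protease class held 9 genes, all with a higher mean, and a median log2 difference of 0.24. Ctsl, a cysteine endopeptidase, had log2 signals of 8.61 and 8.63 with VPA, against 8.31 and 8.02 in untreated cells, a difference of 0.45 ± 0.14 (SE). Ctsz, a cysteine carboxypeptidase, had 8.96 and 9.05 with VPA, against 8.66 and 8.72, a difference of 0.31 ± 0.11. Both were free of overlap and had intervals above 0. Ctsc, the dipeptidyl peptidase that activates serine proteases of immune cells, had the largest difference of the class with the widest scatter. Its signals were 6.82 and 7.13 with VPA, against 6.69 and 6.09, and the difference of 0.58 ± 0.24 became 0.29 with untreated replicate 2 left out and 0.88 with untreated replicate 1 left out.

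The remaining proteases differed by 0.029 to 0.29. Tpp1, a tripeptidyl peptidase, had separated groups at a difference of 0.21, with 7.47 and 7.35 with VPA, against 7.26 and 7.12 in untreated cells. The arrays overlapped for Ctsb (0.29), a cysteine protease, for Ctsh (0.24), an aminopeptidase whose signal was below the median probe set, and for Ctsa (0.11), the carboxypeptidase that protects Neu1 and Glb1. Without VPA replicate 2 the difference was 0.11 for Ctsb and 0.042 for Ctsh, and without untreated replicate 2 it was 0.041 for Ctsa. Arrays also overlapped for Ctsd (0.077), the main aspartic protease, and for Ctsf (0.029). The sign of the Ctsd difference turned without VPA replicate 2, and that of Ctsf in 3 alternatives, one of them the second quantile normalization. Ctsd carries 2 copies of CACGTG in its window, 245 and 98 bases before the start. The class median was 0.11 without VPA replicate 2 and 0.15 without untreated replicate 2, against 0.36 without VPA replicate 1.

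The sulfatase class held 5 genes, 4 with a higher and 1 with a lower mean, and the smallest class median, 0.15. Its genes had mean log2 signals of only 3.43 to 4.81 over the 4 arrays, where the median probe set had 3.79. Whether this low signal bears on the class median was not tested. Sgsh, the sulfamidase of heparan sulfate, had log2 signals of 4.27 and 4.07 with VPA, against 3.75 and 3.80 in untreated cells. Its difference was 0.39 ± 0.12 (SE), with a 95% interval from 0.077 to 0.71, and without overlap. Ids, which removes sulfate from iduronic acid, had 4.67 and 5.13 with VPA, against 4.71 and 4.71. A single array, VPA replicate 2, carried the difference of 0.18, which turned sign without it. Arsa, the sulfatidase, differed by 0.15, and by 0.040 without VPA replicate 1. Galns, which acts on keratan sulfate, differed by 0.083, with the sign turned when untreated replicate 2 was left out.

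Arsb, which acts on dermatan sulfate, had 3.37 and 3.33 with VPA, against 3.59 and 3.44 in untreated cells, a difference of −0.17 ± 0.11 (SE). It was the only member with more than 1 probe set. Its other probe set had log2 signals of 3.07 and 3.13 with VPA, against 3.17 and 2.92, and a difference of 0.052 with overlapping arrays, so the probe sets of Arsb disagree in sign. Both lay below the median probe set. Without VPA replicate 2 the class median was 0.030.

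The membrane protein class held 7 genes, 6 with a higher and 1 with a lower mean, and a median log2 difference of 0.27. Lamp2, a heavily glycosylated protein of the limiting membrane whose splice form LAMP2A serves chaperone-mediated autophagy, had log2 signals of 6.72 and 6.94 with VPA, against 6.32 and 5.99 in untreated cells. Its difference was 0.68 ± 0.16 (SE), with a 95% interval from 0.25 to 1.10, and it was 0.51 without untreated replicate 2. Its paralogue Lamp1 had 9.88 and 9.91 with VPA, against 9.84 and 9.85. The groups of Lamp1 were apart, by 0.037, and its difference was 0.055 with an interval from −0.21 to 0.32. The difference between Lamp1 and Lamp2 was not tested, and splice forms are not resolved in these values.

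Mcoln1, the calcium channel TRPML1, had log2 signals of 6.51 and 6.56 with VPA, against 6.23 and 6.01 in untreated cells, a difference of 0.42 ± 0.13 (SE). Cln3, the membrane protein lost in juvenile Batten disease, had 6.85 and 6.70 with VPA, against 6.47 and 6.31, a difference of 0.38 ± 0.12. In both genes the groups were more than 0.2 apart and the intervals lay above 0. Npc1, which exports cholesterol that it receives from Npc2, had 7.18 and 7.22 with VPA, against 6.86 and 7.02, and its difference of 0.27 had an interval from −0.033 to 0.57.

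Scarb2 and Cd63 had the lowest differences of the class, with Lamp1 (0.055) close above Cd63 (0.013). Scarb2 encodes LIMP-2, an abundant protein of the lysosomal membrane, and had 7.12 and 7.30 with VPA, against 7.58 and 7.28 in untreated cells. Its difference of −0.22 ± 0.15 (SE) was the lowest of the 37, with overlapping arrays and an interval from −0.61 to 0.17, and it was −0.073 without untreated replicate 1. Cd63, a tetraspanin of late endosomes and exosomes, had 6.01 and 6.60 with VPA, against 6.23 and 6.36. Its VPA replicates were 0.59 apart, the widest gap of any member in that group, and spanned both untreated arrays.

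**Figure D2:**
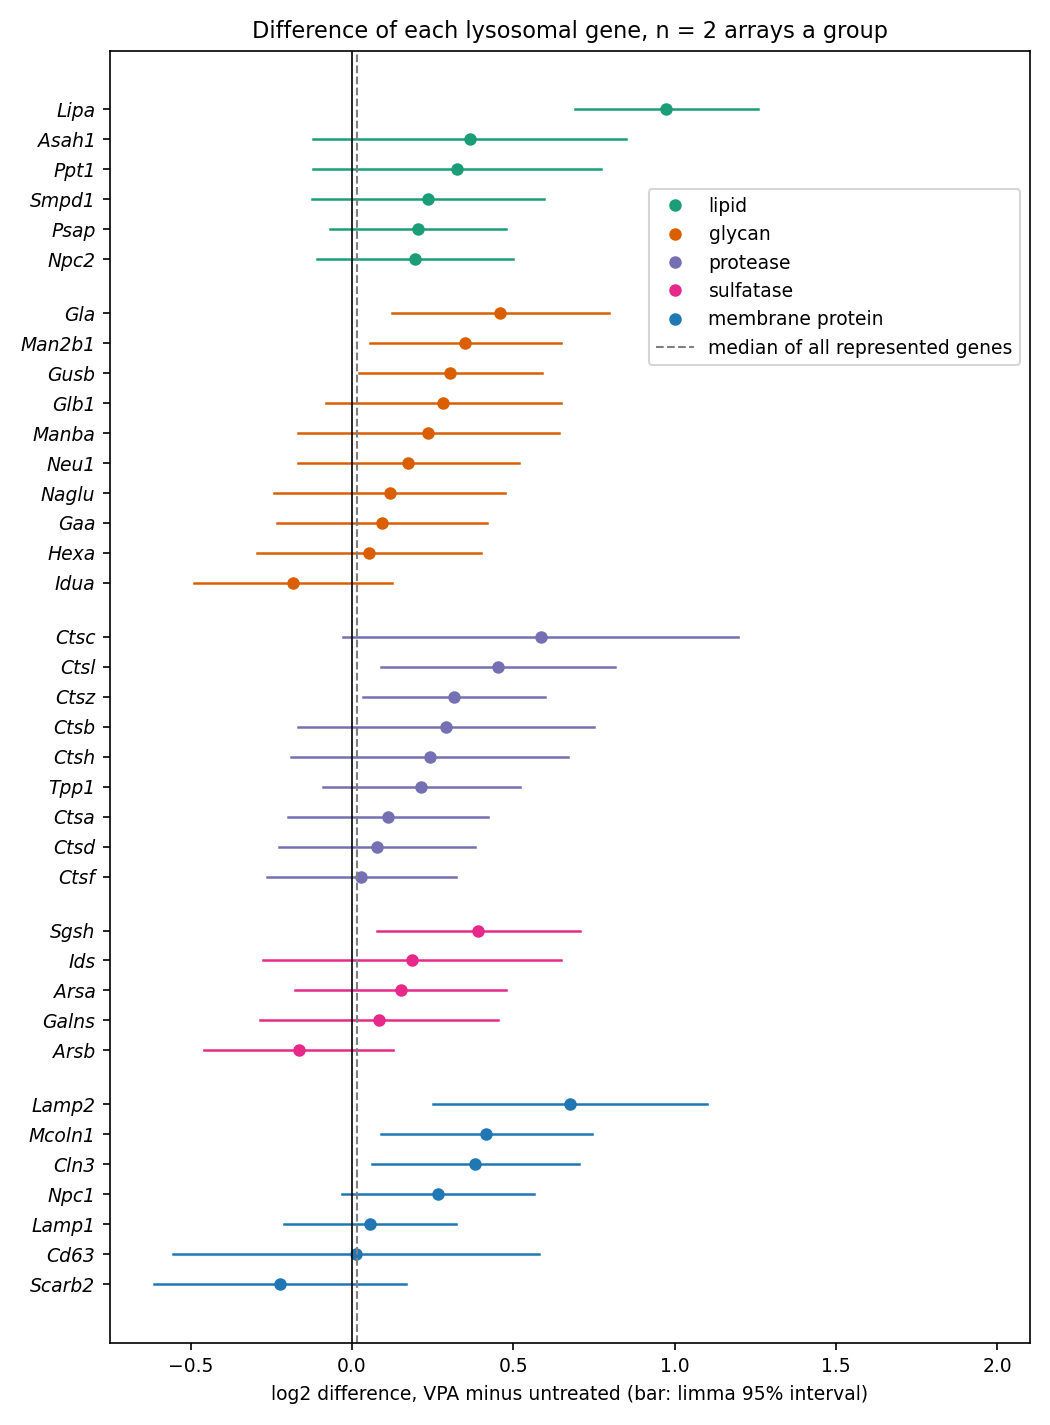
Log2 difference, VPA minus untreated (x axis), of each gene with its limma 95% interval as a bar, grouped by class and ordered within it. The dashed line is the median of all represented genes, 0.015. The bars of 10 genes lie wholly above 0, that of Lipa farthest, and no bar lies wholly below 0.

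Across the 37 genes the replicates were not equally close. Untreated replicate 2 was the lowest of the 4 arrays for 21 genes and the highest for 0, whereas VPA replicate 2 was the highest for 23. The median deviation from a gene's own mean over the 4 arrays was 0.11 on VPA replicate 1 and 0.15 on VPA replicate 2, against −0.062 on untreated replicate 1 and −0.13 on untreated replicate 2. Both VPA arrays were thus above both untreated arrays in this measure, and for all represented genes the same measure lay between −0.012 and 0.016. The median gap between replicates, without regard to sign, was 0.16 in VPA and 0.14 in untreated cells for the members, against 0.12 and 0.14 for all represented genes. Median differences of the members without each array in turn ran from 0.17, without untreated replicate 2, to 0.29, without VPA replicate 1.

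Other genes of the lysosome, on lists that hold none of the 37, were read in the same fit, and 72 of 81 names matched a represented gene. Of these 72, 60 had a higher mean with VPA (83.3%, beside 53.7% of represented and 60.9% of bright genes) and 12 a lower one. At an unadjusted p under 0.05 in limma, 16 were higher (22.2%, beside 5.90% of represented and 9.58% of bright genes). At that p 0 were lower, beside 2.71% and 3.37%, and none passed the adjusted test. Of the 72, 7 lay below the median probe set. These lists too were chosen with earlier results of these data known, so their counts are a description only. The median log2 difference was 0.21 for 24 further hydrolases and cofactors, 0.18 for 25 further membrane proteins and 0.12 for 23 genes of delivery to the lysosome. At an unadjusted p under 0.05 in limma, 8 of the further hydrolases and cofactors were higher. After the second quantile normalization 5 were, beside 4.33% of represented genes in that fit. The further membrane proteins had 6, and 6 again after that normalization. The delivery genes had 2 in both fits. The count of each list moved when some single arrays were left out, which leaves 1 array in a group. Over all arrays, 8.70% of the delivery genes were higher at that p, beside 5.90% of represented and 9.58% of bright genes. All 23 delivery genes are bright genes, so 9.58% is their background, and their share was close to it. The shares of the further hydrolases and cofactors and of the further membrane proteins were above 9.58%. Arrays were separated upward for 13 of the further hydrolases and cofactors, 16 of the further membrane proteins and 12 of the delivery genes, where 24.1% of represented and 32.2% of bright genes were. No difference between the lists was tested.

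Pcyox1, an oxidase of prenylcysteine, led the hydrolases and cofactors with log2 signals of 7.78 and 7.69 with VPA, against 6.97 and 6.72 in untreated cells. Ifi30, the lysosomal thiol reductase, had 8.56 and 8.57 with VPA, against 8.03 and 7.87, and Fuca2, a fucosidase, differed by 0.61 (0.34 without untreated replicate 2). Slc17a5 encodes sialin, which exports sialic acid freed by Neu1, and had 5.78 and 6.32 with VPA, against 5.18 and 5.15. All of these were separated upward, with log2 differences of 0.89 for Pcyox1, 0.61 for Ifi30 and 0.89 for Slc17a5. Ostm1, the partner of the chloride-proton exchanger Clcn7, differed by 0.61, and Slc38a9, an amino acid transporter that signals to mTORC1, by 0.54. Slc38a9 had 2 probe sets, and the difference of their mean was 0.29. Among delivery genes, Lyst, the gene of Chediak-Higashi syndrome, differed by 0.49, Cln8, which helps enzymes leave the endoplasmic reticulum, by 0.43, and Nagpa, which uncovers the mannose 6-phosphate tag, by −0.38 ± 0.20 (SE). The Nagpa difference was −0.11 without VPA replicate 2 and −0.64 without VPA replicate 1.

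**Figure D3:**
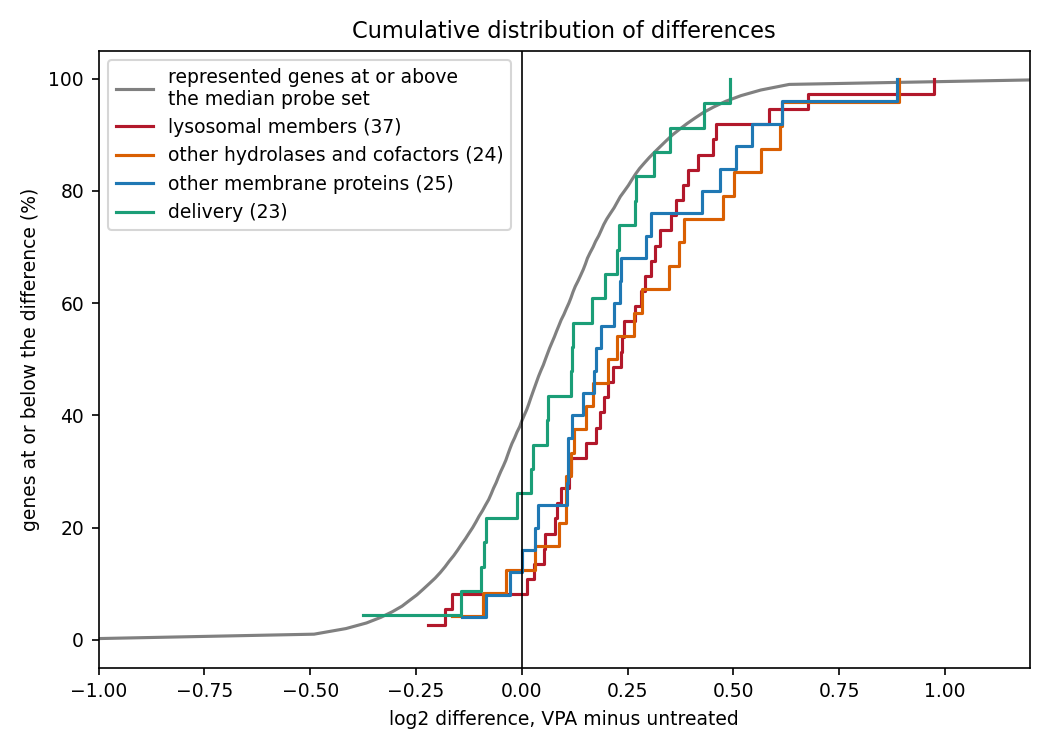
Percent of genes (y axis) at or below a given log2 difference, VPA minus untreated (x axis), for the 37 members, the 3 further lists of 24, 25 and 23 genes and, as the grey line, the 11290 bright genes. The member curve crosses the middle at 0.23 and the grey line at 0.056, and the median of the delivery list, 0.12, lies between them. The grey line is drawn through percentiles, so its ends are straight.

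Cell markers were read on the same arrays. All 10 embryonic stem cell markers had a mean log2 signal of 8.58 or more, as the label of the line says. Pou5f1 had 10.85 and 10.63 with VPA, against 10.75 and 10.96 in untreated cells, and Nanog had 10.18 and 10.39 with VPA, against 10.88 and 10.65. The log2 differences were −0.11 for Pou5f1, −0.48 for Nanog, 0.20 for Sox2 and −0.27 for Zfp42. Of 14 fibroblast feeder markers with a probe set, 11 were lower on average with VPA and 3 higher, with a median log2 difference of −0.11. Their summed linear signal was 994 and 953 with VPA, against 1075 and 1142 in untreated cells. That sum leans on the brightest marker, Sparc, with log2 signals of 8.89 and 8.86 with VPA, against 9.09 and 9.18. The collagen genes Col1a1 (−0.28), Col1a2 (−0.086) and Col3a1 (−0.10) had overlapping arrays. Thy1, a surface protein of fibroblasts, went the other way, with 5.70 and 5.72 with VPA, against 5.31 and 5.49, and was the only gene of that list with an unadjusted p under 0.05 in limma (log2 difference 0.31). That gene is 7.14% of the 14, beside 5.90% of represented genes higher at that p. Arrays were separated downward for 5 of the 14 feeder markers and upward for 2, where 18.1% and 24.1% of represented genes were. The 10 macrophage markers, a cell type rich in lysosomes, all had means below the median probe set, between 2.50 and 3.41, with a summed signal of 81.9 and 80.7 with VPA, against 85.6 and 83.0. Lower averages with VPA were found for 7 of the stem cell markers and higher ones for 3, with summed signals of 18295 and 18693 with VPA, against 19882 and 18044. Arrays were separated downward for 6 of them and upward for 1, and 3 were lower at an unadjusted p under 0.05 (Nanog, Utf1 and Sall4), where 18.1%, 24.1% and 2.71% of represented genes were. Log2 signals have no zero, so no marker was at 0, and the part of other cells in the lysosomal values was not tested.

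**Figure D4:**
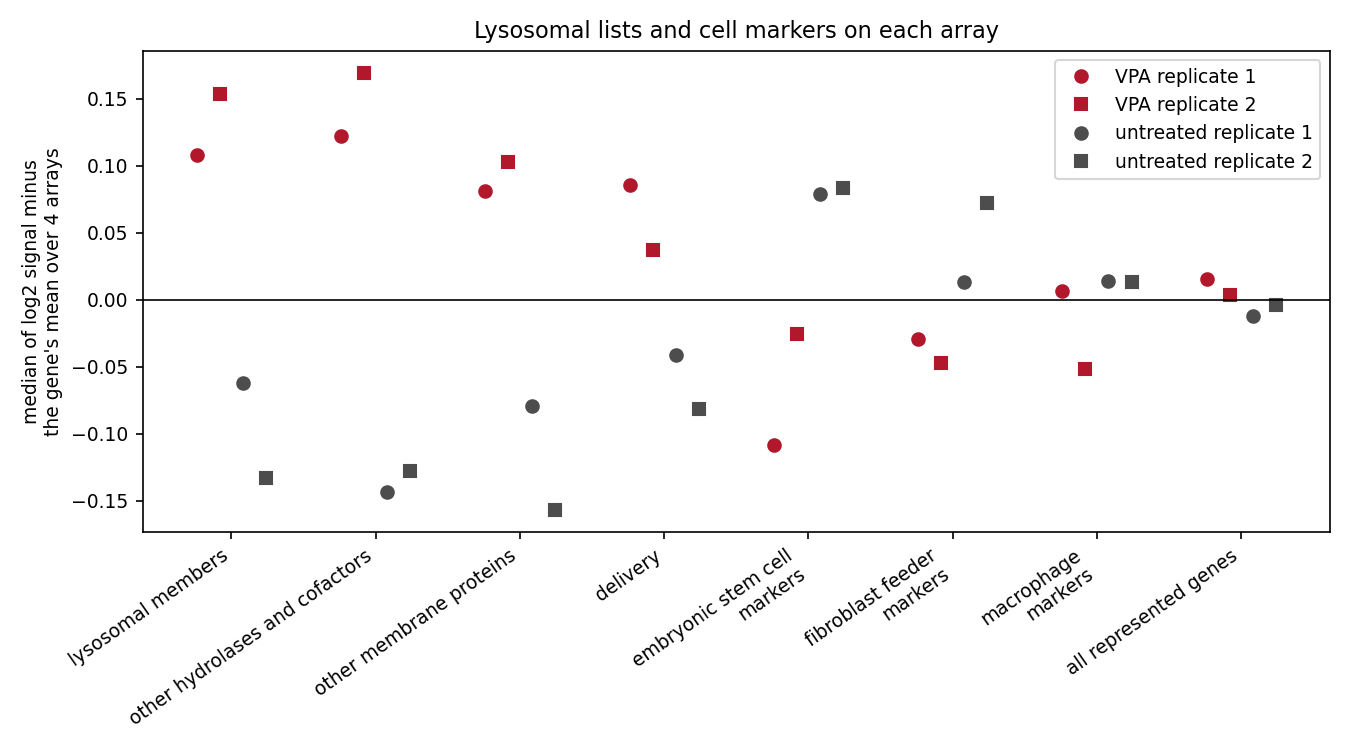
Median over the genes of a list of the log2 signal minus the gene's mean over the 4 arrays (y axis), for each array: VPA red and on the left, untreated grey and on the right, circles for replicate 1 and squares for replicate 2. The lysosomal members lie at 0.11 and 0.15 with VPA, against −0.062 and −0.13 in untreated cells, the feeder markers on the opposite sides of 0, and all represented genes near 0.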

How the data were processed

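The deposited values are log2 signals of each probe set on each array. Per the submitters' processing notes, the authors ran RMA in Affymetrix Expression Console 1.1, and the sources used here do not say which arrays it took together. RMA output is on the log2 scale, and the values ran from 1.41 to 13.95 with array medians of 3.80 to 3.82. Replicate arrays correlated at 0.993 (VPA) and 0.991 (untreated), and arrays of different groups at 0.988 to 0.992. In the platform annotation, 21789 probe sets had 1 gene symbol, 1621 several and 12146 none. VPA and untreated arrays, grouped by their labels, were fitted in limma 3.58.1 (lmFit and eBayes, R 4.3.3) over all 35556 probe sets, with treatment as the only term and a Benjamini-Hochberg adjusted p threshold of 0.05 (two-sided). The fit had 2 residual degrees of freedom, to which moderation added 2.93. With 2 arrays against 2, the smallest p of an exact permutation test is 0.333, and the number of arrays limits the precision.

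Members and lists were chosen with earlier results of these data known, and lists were given no test. Every member may be named, and from each further list the 3 genes with the largest absolute difference. Listed genes that matched no represented gene were not analysed here. Signal depends on the probes, so no gene's level is set against another's. Promoter windows came from RefSeq (GRCm38.p6). The alternatives were another normalization or centring, a filter on dim probe sets, other moderation, the replicate block, leaving out each array, and the mean over a gene's probe sets.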

Additional observations from a re-analysis of the deposited data

How the results depend on the processing

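No probe set was called by limma at an adjusted p of 0.05 over all arrays or under the 9 alternatives run on probe sets, and no member under 10. All 37 members were covered except where dimmer probe sets were left out, which kept 34. The members with a higher mean numbered 30 to 34 under every alternative, 30 of the 37 kept their sign in each, and 7 turned it in some. The median member difference was 0.18 after a second quantile normalization, and 0.17 to 0.29 with an array left out. That normalization also gave class medians of 0.14 for glycan genes and 0.18 for membrane proteins, and list medians of 0.13 for further hydrolases and cofactors and 0.063 for delivery. With the dimmer probe sets left out, the further hydrolases and cofactors had a median of 0.28. In that fit 764 probe sets were lower at an unadjusted p under 0.05 in limma (1220 in the fit over all probe sets). As a share of the represented genes in each fit, 3.29% were lower, against 2.71%. Leaving out an array gave 1181 to 2524 probe sets higher (2049 over all) and 646 to 1718 lower, 2 to 9 members higher at that p, and class medians of 0.15 to 0.44 (lipid), 0.15 to 0.24 (glycan), 0.11 to 0.36 (protease), 0.030 to 0.18 (sulfatase) and 0.19 to 0.31 (membrane protein). The ranges of the list medians were 0.23 to 0.29 (further hydrolases and cofactors), 0.16 to 0.27 (further membrane proteins) and 0.096 to 0.14 (delivery). The cause of these shifts was not tested. Where an array was left out, the lone array of its group is assumed to vary like the other group. The labels number the replicates 1 and 2 in both groups and do not say whether same-numbered arrays were handled together. Over all probe sets, same-numbered arrays did not deviate together (correlation −0.097). With 2 arrays a group, this value cannot exclude something they share that touches only part of the genes. With the replicate block, 1677 probe sets were higher and 899 lower at an unadjusted p under 0.05 in limma. At that p 7 of the 37 members were higher and 0 lower, beside 3.95% and 1.57% of represented genes.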
